A study of Mus musculus with 16 samples.

Results

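Small leucine-rich proteoglycans (SLRPs) are secreted proteins that bind collagen and sit along its fibrils. The 10 genes described here are *Dcn*, *Bgn*, *Aspn*, *Lum*, *Fmod*, *Kera*, *Prelp*, *Omd*, *Ogn* and *Epyc*. They were chosen by name, with each Ensembl identifier matched to its mouse symbol, and all 10 were found among the 29629 genes of the single-cell table and the 47729 genes of the bulk table. The first table holds mouse cells from induced pluripotent stem cells (iPSCs) of the *ScxGFP* transgenic strain, in which a GFP reporter marks cells that express *Scx*, the transcription factor of the tendon lineage. The iPSCs, a single clone kept on feeder cells, were turned into mesodermal cells and sorted untreated (T0) or after 10 ng/ml TGF-β2 for 3 days (T3, labelled tendon progenitors), 6 days or 9 days (T6 and T9, labelled tenocytes). There were 3 plates of 384 wells for each, all with the same 384 well barcodes. T0 cells were released with trypsin, whereas T3 to T9 cells were also treated with collagenase. Treatment time and the release step therefore cannot be told apart at T0. All later plates were treated with TGF-β2, so its effect and that of days in culture cannot be told apart either. The second table holds Achilles tendon from 2-week-old mice, 2 wild-type (Scx_Wt) and 2 homozygous *Scx* knockout littermates (Scx_homoKO). No label says whether plates came from separate cultures, so p-values for plates measure the spread between plates, which may be technical.

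SLRPs share a core of leucine-rich repeats whose concave face grips collagen, and most carry chondroitin, dermatan or keratan sulfate chains. They set the spacing and the final diameter of collagen fibrils, and mice without decorin, lumican or fibromodulin have abnormal fibrils in skin, cornea or tendon. Class I holds decorin (*Dcn*), biglycan (*Bgn*) and asporin (*Aspn*). Class II holds the pair lumican (*Lum*) and fibromodulin (*Fmod*), the pair keratocan (*Kera*) and PRELP (*Prelp*), and osteomodulin (*Omd*). Class III holds osteoglycin (*Ogn*) and epiphycan (*Epyc*). Fibromodulin and biglycan are known parts of the tendon stem cell niche, and keratocan, named for the cornea, is also made in tendon.

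Most of these genes stand beside each other in the genome (GRCm38, GENCODE release M21). On chromosome 10, *Dcn* (97479609 to 97518143), *Lum* (97565128 to 97572703), *Kera* (97606879 to 97613692) and *Epyc* (97644068 to 97682454) lay on the plus strand with gaps of 47.0, 34.2 and 30.4 kb and no other protein-coding gene between them. On chromosome 13, *Aspn* (49544443 to 49567565), *Omd* (49582462 to 49592822) and *Ogn* (49608046 to 49624501) followed each other with gaps of 14.9 and 15.2 kb, all within the span of *Cenpp* on the opposite strand. *Aspn* shared 7 exonic bases with *Cenpp*, which had 124 counts over the 4 bulk libraries. On chromosome 1, *Prelp* (133910304 to 133921414, minus strand) was 115.8 kb from *Fmod* (134037254 to 134048277, plus strand). *Prelp* shared 350 exonic bases with the antisense transcript *Gm15851*, which had 7 counts over the bulk libraries. *Bgn* stood alone on chromosome X (73483602 to 73495933).

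RefSeq promoter windows of 300 bases (250 before and 50 after the start, GRCm38.p6) were found for 8 of the 10 genes, and *Dcn* and *Lum* had no entry. The windows of the 4 genes below are shown because each of them changed in the tendon without *Scx*, the first 2 downward and the last 2 upward. Capitals mark E-boxes, the letters CANNTG that basic helix-loop-helix factors such as Scx bind, read on both strands (the letters are their own reverse complement).
Fmod: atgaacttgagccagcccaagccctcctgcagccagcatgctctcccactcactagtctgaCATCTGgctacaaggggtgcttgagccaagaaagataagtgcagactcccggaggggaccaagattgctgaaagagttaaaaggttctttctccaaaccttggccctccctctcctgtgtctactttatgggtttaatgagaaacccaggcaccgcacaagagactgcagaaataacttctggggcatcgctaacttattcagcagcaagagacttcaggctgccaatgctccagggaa
Kera: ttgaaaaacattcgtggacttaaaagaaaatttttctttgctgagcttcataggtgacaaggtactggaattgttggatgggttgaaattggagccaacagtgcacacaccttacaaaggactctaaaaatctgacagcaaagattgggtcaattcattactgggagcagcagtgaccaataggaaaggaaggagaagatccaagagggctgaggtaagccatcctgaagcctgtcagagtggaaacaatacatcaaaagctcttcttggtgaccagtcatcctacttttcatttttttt
Aspn: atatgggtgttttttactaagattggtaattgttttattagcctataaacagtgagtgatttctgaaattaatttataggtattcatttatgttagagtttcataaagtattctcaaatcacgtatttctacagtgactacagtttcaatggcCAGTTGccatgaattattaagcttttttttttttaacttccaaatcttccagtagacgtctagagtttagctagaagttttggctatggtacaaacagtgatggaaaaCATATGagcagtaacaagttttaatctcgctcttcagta
Prelp: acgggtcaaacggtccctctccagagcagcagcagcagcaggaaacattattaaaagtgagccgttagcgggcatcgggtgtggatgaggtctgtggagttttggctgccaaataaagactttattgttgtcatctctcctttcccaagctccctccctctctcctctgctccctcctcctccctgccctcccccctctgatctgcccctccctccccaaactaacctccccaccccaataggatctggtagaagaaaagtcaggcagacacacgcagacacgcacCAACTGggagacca
The window of *Fmod* is chr1:134037004-134037303 on the plus strand, that of *Kera* chr10:97606955-97607254 on the plus strand, that of *Aspn* chr13:49544193-49544492 on the plus strand and that of *Prelp* chr1:133921352-133921651 on the minus strand. *Fmod* had 1 E-box, 189 bases before its start, and *Kera* had 0 in these letters. The RefSeq start of *Kera* lies downstream of the start in GENCODE, so that its whole window is inside the GENCODE gene and holds none of the bases before that start. *Aspn* had 2 and *Prelp* had 1. Of the others, *Bgn* had 1, *Ogn* had 4 and *Omd* had 0, while both windows of *Epyc* had 2. Across all 32851 promoter windows of the mouse, 72.3% held at least 1 E-box and the median number was 1. The letters CAGAC, a Smad-binding element read on both strands, occurred 2 times in the *Fmod* window and 3 times in that of *Prelp*, against 49.6% of all windows with at least 1, and no match overlapped an E-box. The E-boxes thus occurred in windows of genes that fell and of genes that rose, and a match is only a match of letters.

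The plates held between 1921125 and 4657093 UMIs, that is, molecules counted by a random tag, and 4594 of 4608 wells passed a minimum of 200 genes. The bulk libraries held between 11188270 and 12398560 reads. In the culture, levels are given as CPM, a count scaled to a plate total of 1000000. Since CEL-Seq2 tags only the 3′ end, each molecule counts once whatever its length, so these levels were compared between genes without division by length. Other differences between genes in how well they are counted were not tested. In the tendon, levels between genes are given as RPKM, reads scaled by library size and per kilobase of all annotated exons. Of the 12 plates, 7 (the 3 T0 plates among them) had a large share of reads outside annotated features and 5 a small one, and ratios within each kind are given where they bear on a result. This split was taken from the mapping summary of the study. As a check of the labels, the summed level of 8 tendon markers (*Scx*, *Tnmd*, *Mkx*, *Thbs4*, *Col1a1*, *Col1a2*, *Egr1*, *Tnc*) ranged from 807 to 824 CPM at T0, from 14330 to 41470 at T9, and was 159500 and 147100 in Scx_Wt tendon against 70860 and 81880 in Scx_homoKO.

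**Figure D1:**
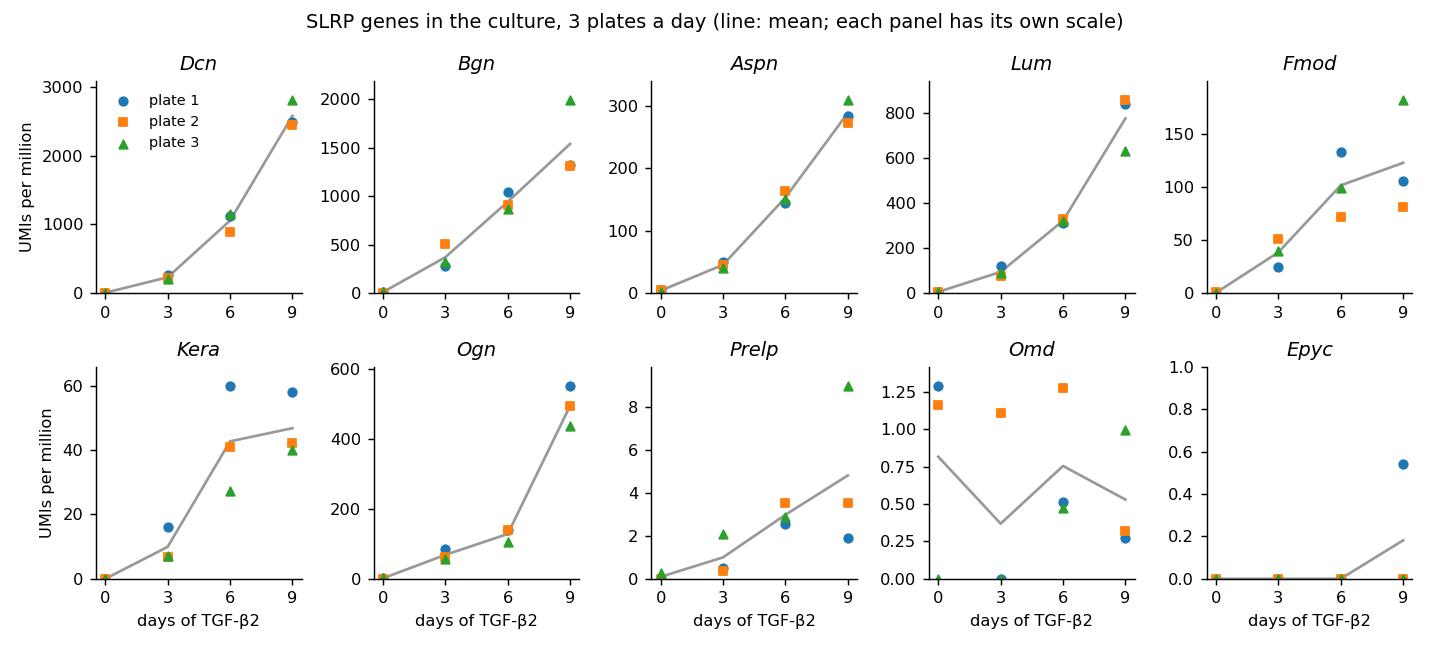
Level of each SLRP gene (vertical axis, CPM; each panel has its own scale) by days of TGF-β2 (horizontal axis). Points are the 3 plates of each day and the line joins their means. *Dcn* reached a mean of 2582 at T9, *Kera* levelled off between T6 and T9, and *Omd* and *Epyc* stayed at or near 0.

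As a group, the 10 genes held 0.00222 to 0.00361% of all UMIs in the T0 plates and 0.0766 to 0.0971% in those of T3. Their share was 0.255 to 0.296% by T6, and it came to 0.55 to 0.641% on the last day, without overlap between days. From T0 to T3, 8 of the 10 genes could be tested and all 8 rose (edgeR quasi-likelihood test, Benjamini-Hochberg adjusted p of at most 0.05), while 17.0% of the 13372 genes tested were called higher. *Dcn*, *Bgn* and *Lum* were above the filter on low counts in all T0 plates and *Aspn* in 2 of them. *Fmod*, *Kera*, *Ogn* and *Prelp* reached it only in later plates, so they had to be higher there and the count of 8 is not by itself a result. The median log2 fold change over the 8 was 5.49 (5.31 with *Kera* and *Prelp* at their counting values), against 0.01 over all genes. This median includes the 4 genes that had to be higher, so it is a description as well. *Dcn*, *Bgn*, *Lum* and *Aspn* differed by 5.62, 5.35, 4.32 and 3.71 log2 units. From T3 to T6, 6 of the 8 rose, against 2.61% of all genes tested (median 1.64 log2 units against 0.03). From T6 to T9, 4 of the 8 rose, against 0.935% of all genes (median 1.03 against -0.01).

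Decorin, the main dermatan sulfate proteoglycan of tendon and a binder of TGF-β, became the most abundant of them. *Dcn* was at 5.80, 3.24 and 7.80 CPM in the T0 plates and at 263, 219 and 213 in those of T3. It reached 1124, 889 and 1156 CPM by T6 and 2492, 2445 and 2808 by T9. The day groups did not overlap. The fitted log2 fold change was 5.62 ± 0.31 (SE) from T0 to T3 (edgeR adjusted p = 2.08e-08), 2.18 ± 0.25 from T3 to T6 (adjusted p = 0.000431) and 1.54 ± 0.24 from T6 to T9 (adjusted p = 0.00783). Within the plates with many reads outside features, the log2 ratios of the same steps were 5.28, 2.38 and 1.30.

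Biglycan carries the same kinds of chain as decorin and binds collagen types I and VI. *Bgn* was the most abundant of the genes at T0 and T3, with 15.0, 6.25 and 9.96 CPM at T0, and 282, 513 and 317 at T3. It then read 1046, 911 and 873 at T6 and 1323, 1308 and 1991 at T9, and again no day overlapped the next. It rose by 5.35 ± 0.29 log2 units to T3 (edgeR adjusted p = 2.02e-08) and by 1.41 ± 0.24 to T6 (adjusted p = 0.00421). The difference of 0.91 ± 0.23 from T6 to T9 missed the threshold (adjusted p = 0.0702), although DESeq2 called it (adjusted p = 0.000612), as did edgeR without T6 plate 2 (0.0358) or T9 plate 3 (0.0493). The highest *Bgn* plates at T3 and at T9 were the single plates of those days with many reads outside features. Within that kind of plate *Bgn* differed by 0.90 log2 units from T3 to T6 and by 1.05 from T6 to T9, and within the other kind by 1.60 and 0.53.

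Asporin, which has a run of aspartates where decorin carries its chain, competes with decorin for collagen. *Aspn* was at 5.15, 4.63 and 2.15 CPM at T0 and at 50.5, 45.0 and 40.4 after 3 days. Its T6 plates read 144, 164 and 151 and its T9 plates 284, 273 and 309, with no overlap between days. The steps were 3.71 ± 0.30, 1.79 ± 0.25 and 1.14 ± 0.23 log2 units, with edgeR adjusted p-values of 6.46e-07, 0.00117 and 0.0277. The last call was lost without T6 plate 1 (adjusted p = 0.143), T6 plate 3 (0.15), T9 plate 1 (0.135) or T9 plate 2 (0.0826), and with only the 6 plates of the comparison (0.11).

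Lumican and fibromodulin bind the same stretch of collagen I, and lumican is known to act early and fibromodulin late in fibril growth in tendon. *Lum* stood at 6.01, 5.56 and 5.38 CPM in the T0 plates and at 120, 74.1 and 89.2 in the T3 plates. By T6 these were 313, 331 and 322, and by T9 843, 858 and 631. The days did not overlap. It rose at each step, by 4.32 ± 0.35, 1.77 ± 0.29 and 1.54 ± 0.28 log2 units (edgeR adjusted p = 7.09e-07, 0.00341 and 0.0174). Leaving out T6 plate 1 or 3, or T9 plate 1 or 2, moved the adjusted p of the last step to between 0.067 and 0.0988, and using only its 6 plates moved it to 0.0894.

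*Fmod* started lower and was not called after T6. It had 5 UMIs in all at T0 (2, 3 and 0 by plate), then 24.5, 50.9 and 40.1 CPM at T3 and 133, 71.9 and 99.4 at T6. At T9 it read 105, 81.3 and 182, so that the T6 and T9 plates overlapped. It rose by 6.68 ± 0.44 log2 units to T3 (edgeR adjusted p = 9.13e-08) and by 1.41 ± 0.26 to T6 (adjusted p = 0.00678). Its T0 plates were all below the filter on low counts. It could thus be tested against T0 only through later plates, and the p-value of that step is a description. From T6 to T9 the difference was 0.49 ± 0.25 (95% interval -0.03 to 1.02, edgeR adjusted p = 0.351), and 0.0499 was the adjusted p with the kind of plate as a covariate. As for *Bgn*, the highest T3 and T9 plates were the ones with many reads outside features.

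*Kera* had 0 UMIs at T0, which allows a level of up to 0.236 CPM (3 UMIs over the group). The T3 plates held 31, 18 and 20 of its UMIs (16.1, 6.63 and 6.97 CPM), those of T6 234, 129 and 114 (59.9, 41.0 and 27.1 CPM), and those of T9 214, 131 and 121 (58.1, 42.1 and 40.1 CPM), so that T6 and T9 overlapped. Its level was at least 38.9-fold higher on day 3 than the T0 limit, and at least 179-fold and 201-fold higher on days 6 and 9. Its call from T3 to T6 (2.15 ± 0.45 log2 units, edgeR adjusted p = 0.0179) was lost without T3 plate 2 (adjusted p = 0.063), T3 plate 3 (0.088) or T6 plate 1 (0.0768). From T6 to T9 the difference was 0.41 ± 0.39 (95% interval -0.43 to 1.26, adjusted p = 0.627).

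Osteoglycin, also called mimecan, had its largest later step at the end of the course. *Ogn* was at 2.36, 0.695 and 1.35 CPM in the T0 plates and at 86.4, 61.5 and 56.8 in the T3 plates. It read 140, 139 and 105 CPM by T6 and 551, 493 and 437 by T9, all days apart. It rose by 5.74 ± 0.43 log2 units to T3 (edgeR adjusted p = 3.11e-07) and 4.6-fold from T6 to T9 (adjusted p = 0.00287). As for *Fmod*, all T0 plates were below the filter on low counts, so the p-value of the step from T0 is a description. Between T3 and T6 the difference of 0.93 ± 0.30 was not called (adjusted p = 0.107), but DESeq2 called it (0.0484), as did the edgeR fit with the kind of plate as a covariate (0.000585). *Ogn* rose from T6 to T9 within both kinds of plate, by 1.84 and 1.91 log2 units.

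The remaining 3 genes were rare. *Prelp*, whose protein ties basement membranes to collagen, had 1 UMI in all T0 plates together, 8 after 3 days, then 33 and 45, with 27 of the last in T9 plate 3. Its T3 to T0 ratio of 13.5 had a 95% counting interval of 1.81 to 600.0, and its call (edgeR adjusted p = 0.0387) was lost without T0 plate 1 or 2 or T3 plate 1 or 3 (0.0502 to 0.297). *Omd*, a bone SLRP, had between 0 and 6 UMIs in each plate, and *Epyc*, an SLRP of growth cartilage, had 2 UMIs, both in T9 plate 1. Over the whole course, the 8 genes tested were called higher at T9 than at T0, beside 23.6% of all genes tested, but *Fmod*, *Kera*, *Ogn* and *Prelp* again could be tested only through their later plates, so the count is a description. That comparison shares the T0 and T9 plates with those above.

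**Figure D2:**
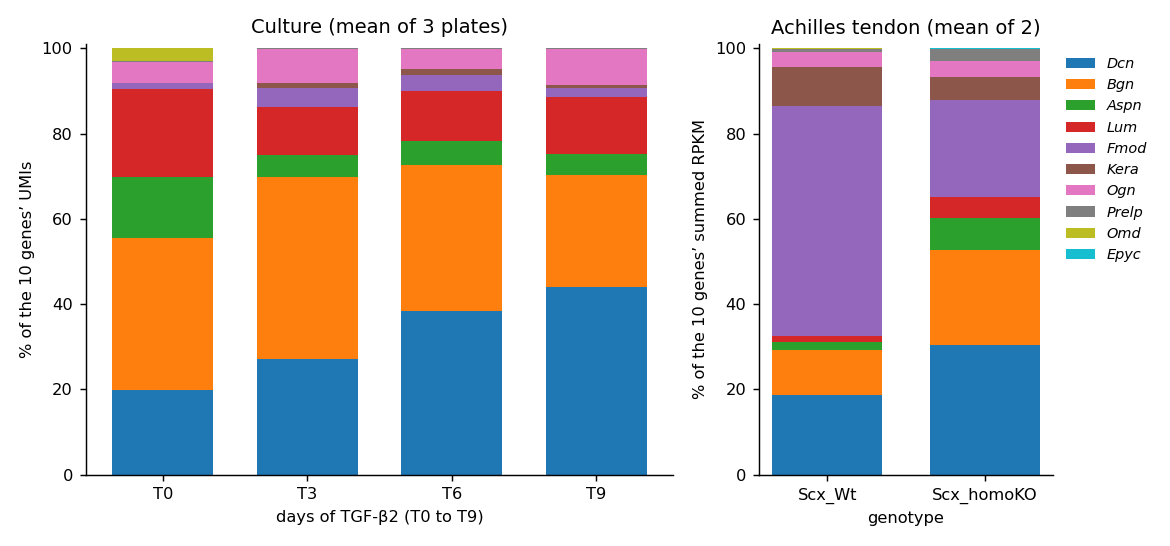
Mean share of each SLRP gene among the 10, as a percentage (vertical axis) of their UMIs in the culture (left, T0 to T9, 3 plates each) and of their summed RPKM in Achilles tendon (right, 2 libraries each). *Dcn* and *Bgn* made up most of the UMIs at T9, and *Fmod* 53.9% of the RPKM in Scx_Wt but 22.6% in Scx_homoKO.

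The make-up of the family therefore shifted. *Dcn* was 19.9% ± 7.9 (SD, n = 3) of the family's UMIs at T0 and 27.2% ± 4.4 at T3. It was 38.3% ± 3.7 by T6 and 44.1% ± 0.3 by T9, and the T9 plates lay above all earlier ones. *Bgn* was 42.6% ± 9.7 at T3 and 26.1% ± 4.3 at T9. *Ogn* was 4.67% ± 0.80 at T6 and 8.50% ± 1.51 at T9, without overlap between the plates. By mean level at T9 the order was *Dcn*, *Bgn*, *Lum*, *Ogn*, *Aspn*, *Fmod*, *Kera*, *Prelp*, *Omd* and *Epyc*. Only *Omd* and *Epyc* overlapped across plates among neighbours in that order.

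**Figure D3:**
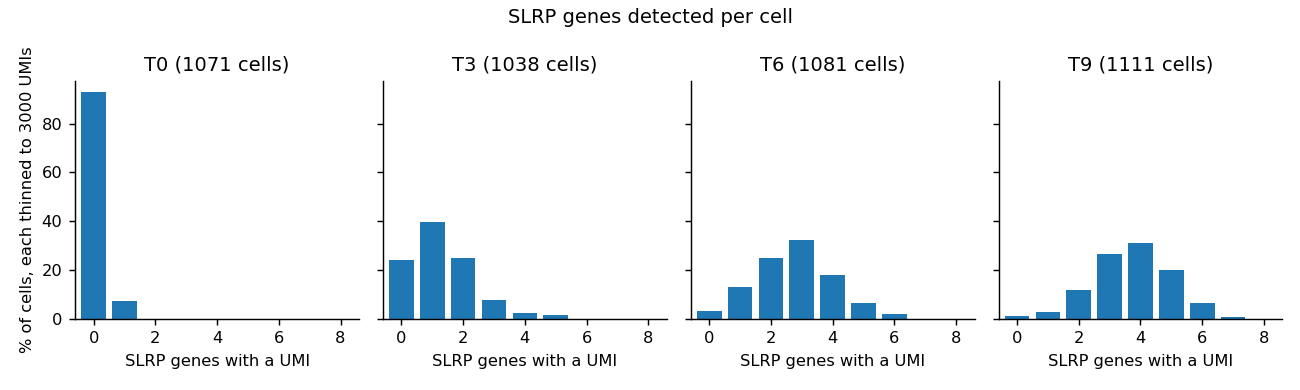
Number of the 10 SLRP genes with at least 1 UMI in a cell (horizontal axis) against the percentage of cells (vertical axis), for cells thinned to 3000 UMIs and pooled over the 3 plates of a time point. Most cells had 0 at T0, while at T9 most had 3 or more.

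Single cells held UMIs of several of the genes. After every cell was thinned to 3000 UMIs (4301 cells were deep enough), a cell held UMIs of 0.0731 ± 0.0249 of the genes at T0 (mean ± SD over 3 plates) and 1.29 ± 0.18 at T3. The number was 2.77 ± 0.18 by T6 and 3.73 ± 0.14 by T9. Without thinning the means were 0.236, 1.71, 3.79 and 4.49. The share of thinned cells with 5 or more of the genes was 1.43% ± 0.53 for T3, 8.62% ± 5.87 for T6 and 27.0% ± 3.5 for T9.

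The genes differed in how many cells showed them. At T9, 95.9% ± 0.6 of cells (SD, n = 3 plates) had a *Dcn* UMI, 97.6% ± 1.1 a *Bgn* UMI, 82.5% ± 3.8 a *Lum* UMI, 67.3% ± 6.0 an *Ogn* UMI and 57.4% ± 3.1 an *Aspn* UMI. *Fmod* was seen in 37.6% ± 7.2 of cells and *Kera* in 8.46% ± 1.30. Thinned to equal depth, *Fmod* was seen in 22.2% ± 7.2 of T6 cells and 24.1% ± 7.1 of T9 cells, and *Kera* in 5.60% ± 2.14 and 5.14% ± 0.77, so neither share moved by more than its spread. For *Dcn* the thinned shares were 66.5% ± 4.7 and 89.4% ± 2.0, and for *Ogn* the T6 plates (20.3 to 26.2%) lay below the T9 plates (50.7 to 52.8%), without overlap for either gene. As a measure of background, 32 cells of T3 to T9 that held UMIs of at least 4 of 8 pluripotency markers, with a median of 18636 UMIs, showed *Dcn* in 46.9% and *Bgn* in 59.4% at levels of 70.7 and 95.4 CPM. The other 3415 cells, with a median of 7435 UMIs, had 1390 and 1010 CPM of these genes. *Kera* was seen in 6.25% of the pluripotency marker cells and in 6.73% of the others (2 of 32 and 230 of 3415), at levels of 9.87 and 36.0 CPM. With so few and deeper cells in the first group, these shares cannot be ranked, and no *Kera* expression is read from the share alone. At T0, 364 UMIs of the family were spread over 244 of 1147 cells (21.3%), and 3 cells had 3 or more of the genes.

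A cell with a UMI of *Tnmd*, the membrane protein that marks mature tendon cells, was next compared with the other cells of its plate, by summing UMIs over cells and fitting plates as blocks. At T9, 36 to 74 cells of a plate had a *Tnmd* UMI, with a median of 7734 to 10039.5 UMIs against 7029.5 to 8743 in the other cells. *Kera*, *Fmod* and *Aspn* were higher in these cells, 3 of 7 genes tested, against 0.843% of all genes tested. *Kera* stood at 185, 219 and 218 CPM in the *Tnmd* UMI cells and at 24.1, 16.2 and 17.2 in the others, and these cells held 62.0 to 67.3% of all *Kera* UMIs with 11.4 to 21.2% of all UMIs. The difference was 3.43 ± 0.20 log2 units (edgeR adjusted p = 7.62e-08). For *Fmod* it was 1.46 ± 0.13 (209, 181 and 416 against 77.5, 66.6 and 152 CPM, adjusted p = 1.45e-05) and for *Aspn* 0.97 ± 0.11 (adjusted p = 0.000144). *Dcn* was lower in the *Tnmd* UMI cells of all 3 plates (2390, 1108 and 2027 against 2519, 2640 and 2908), a difference of -0.58 ± 0.14 that missed the threshold (edgeR adjusted p = 0.0609, DESeq2 adjusted p = 0.999). The size rested on T9 plate 2: edgeR gave -0.26 without it (adjusted p = 0.277), -0.87 without plate 1 (0.0051) and -0.62 without plate 3 (0.00792), and -0.70 with cells thinned to 3000 UMIs (0.000524). *Lum* differed by -0.19 (95% interval -0.38 to 0.01) and *Bgn* by 0.12 (-0.03 to 0.28).

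The same 3 genes were higher in T9 cells with a *Scx* UMI, against 0.939% of all genes tested. Cells with a *Scx* UMI had a median of 7468.5 to 9704 UMIs by plate, against 6794 to 8408 in the other cells. They held 87.6 to 93.1% of the *Kera* UMIs and 33.7 to 49.4% of all UMIs. *Kera* was at 109, 116 and 85.6 CPM in them and at 8.05, 4.36 and 8.44 in the others, a difference of 3.90 ± 0.23 log2 units (edgeR adjusted p = 3.8e-08). *Fmod* differed by 1.22 ± 0.13 (adjusted p = 6.83e-05) and *Aspn* by 0.82 ± 0.11 (adjusted p = 0.000413). These cells held 30.3 to 48.2% of the *Dcn* UMIs, about their share of all UMIs (-0.20 ± 0.06, adjusted p = 0.129). Single plates and the processing decided whether further genes were called. With all plates, edgeR called *Ogn* lower with cells thinned to 3000 UMIs (-0.44, adjusted p = 0.0372). With no filter on low counts it called *Dcn* (-0.21, 0.00259) and *Bgn* (0.20, 0.0446). Without T9 plate 3, *Dcn* (-0.15, edgeR adjusted p = 0.0309) and *Bgn* (0.33, 6.3e-07) were called, and without T9 plate 2 *Ogn* was (-0.43, 0.0033), whereas the other leave-outs gave adjusted p-values up to 0.404, 0.912 and 0.917 for the 3 genes. Some markers of other cell types were also higher in the *Scx* UMI cells: both cartilage markers tested (*Sox9*, 0.78 ± 0.17, and *Col11a1*) and 2 of 6 smooth muscle markers (*Tagln*, 0.45 ± 0.08, and *Acta2*). Others were lower: the 1 bone marker tested (*Spp1*, -0.94 ± 0.205) and 1 of 6 pluripotency markers (*Sox2*, -1.24 ± 0.21), with 0 called by DESeq2 in both lists. The part of these markers in the result was not tested. Many cells count in both the *Tnmd* and the *Scx* class, so the pair of comparisons is not independent.

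At T6, a comparison added after the T9 values were seen, *Kera* (2.64 ± 0.28), *Aspn* (0.75 ± 0.14) and *Fmod* (1.04 ± 0.16) were higher in *Tnmd* UMI cells (edgeR adjusted p = 2.08e-05, 0.0128 and 0.00182), against 0.667% of all genes. The *Aspn* call was lost without T6 plate 2 (adjusted p = 0.21). In *Scx* UMI cells, which held 79.4 to 86.2% of all UMIs at T6, *Fmod* (1.76 ± 0.19, edgeR adjusted p = 0.000342) and *Aspn* (0.89 ± 0.16, adjusted p = 0.0179) were called, against 0.334% of all genes. These cells were deeper, with a median of 7939 to 10909 UMIs by plate, against 7156 to 7874.5 in the other cells. *Kera* differed by 1.62 ± 0.41 (adjusted p = 0.11), with 22 UMIs in the cells without *Scx* of T6 plate 1 but 1 and 7 in those of the other plates. The *Aspn* call was lost without T6 plate 1 (0.138) or plate 3 (0.151), and without plate 1 *Kera* was called (2.74, adjusted p = 0.0053). *Dcn* was lower in *Scx* UMI cells at T6 by a value that missed the threshold (-0.37 ± 0.08, adjusted p = 0.0616) and passed it without plate 1 (0.0253) or plate 2 (0.0281) but not without plate 3 (0.456).

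The tendon of *Scx* knockout mice was then examined. *Scx* itself had 1151 and 996 counts in the Scx_Wt libraries and 287 and 296 in the Scx_homoKO libraries (-1.88 ± 0.17 log2 units, edgeR adjusted p = 0.000429). Reads on the gene thus fell but did not vanish, and which part of it the knockout removes is not given in the sources used here. *Tnmd* fell by 2.30 ± 0.20 log2 units (adjusted p = 0.000284).

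**Figure D4:**
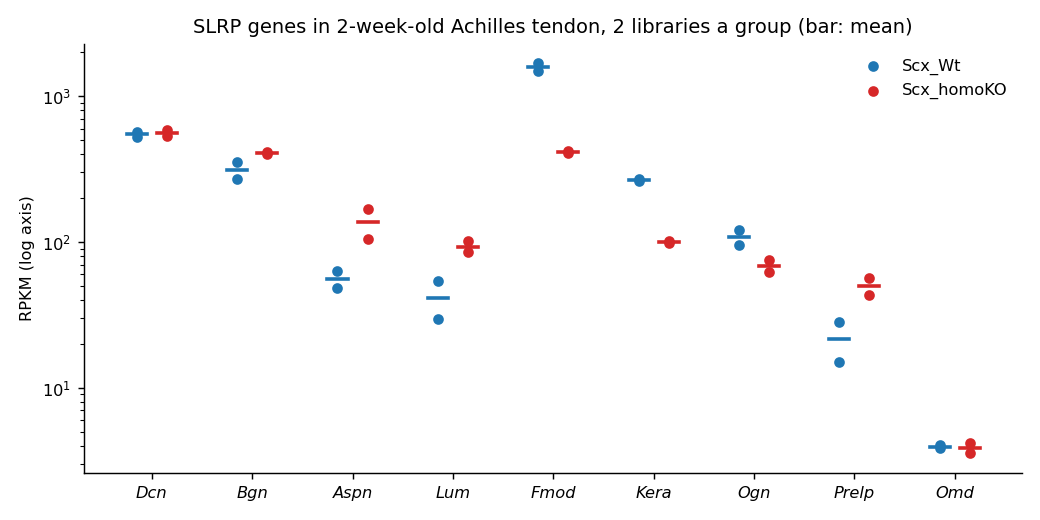
Level of 9 SLRP genes in 2-week-old Achilles tendon (vertical axis, RPKM, log axis), with a point for each of the 2 Scx_Wt and 2 Scx_homoKO libraries and a bar at the mean. *Fmod* and *Kera* are lower and *Aspn*, *Lum* and *Prelp* higher in the knockout. *Epyc*, at 0 in a Scx_Wt library, is left out.

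The family split in the knockout. *Fmod* and *Kera* fell, 2 of the 9 genes tested, while 2.07% of all 14602 genes tested were called lower. *Aspn*, *Lum* and *Prelp* rose, 3 of the 9, while 1.77% of all genes were called higher. The median log2 fold change was 0.07 over the 9 members and 0.00 over all genes. In whole tissue, fewer cells of a type and less RNA per cell cannot be told apart.

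Fibromodulin had the highest level of the SLRP transcripts in wild-type tendon, with 1677 and 1490 RPKM in the Scx_Wt libraries and 418 and 411 in the Scx_homoKO libraries. This 3.7-fold fall (-1.89 ± 0.23 log2 units, edgeR adjusted p = 0.00208) brought it below *Dcn*. The lead over *Dcn* depends on the exon lengths used (3306 bases for *Fmod* and 5838 for *Dcn*): before division by length the means were 5234 and 3198 CPM in Scx_Wt. *Kera* went from 6664 and 7515 counts to 2867 and 2629 (-1.37 ± 0.17, adjusted p = 0.00268), and for both genes the groups did not overlap.

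*Aspn* had 1660 and 1385 counts in Scx_Wt and 3065 and 4684 in Scx_homoKO, a rise of 1.36 ± 0.24 log2 units (edgeR adjusted p = 0.0151). *Lum* had 1471 and 885 against 3071 and 2450 (1.22 ± 0.23, adjusted p = 0.0208), and its call was lost without Scx_homoKO replicate 1 (adjusted p = 0.0536). *Prelp* had 1146 and 665 against 1928 and 2412 (1.27 ± 0.26, adjusted p = 0.0287). The knockout libraries were above both wild-type ones for each of the 3 genes, and the 2 wild-type libraries stood apart for *Lum* (53.7 and 29.5 RPKM) and *Prelp* (28.3 and 15.0).

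*Dcn* was level, with 569 and 527 RPKM in Scx_Wt and 532 and 584 in Scx_homoKO. Its difference of 0.07 log2 units had a 95% interval of -0.43 to 0.58 (adjusted p = 0.911), which does not reach the size of the fall of *Fmod* or *Kera*. *Bgn* differed by 0.43 (95% interval -0.07 to 0.93, adjusted p = 0.363), with 24330 and 20261 against 30410 and 29864 counts. *Ogn*, at 3467 and 2999 against 1981 and 2287 counts, was lower in both knockout libraries and was not called by edgeR (-0.59 ± 0.18, adjusted p = 0.113), but was called by DESeq2 (0.0354). *Omd* had 97 and 111 against 117 and 94 counts. *Epyc*, with 4 and 0 against 12 and 9 counts, was too rare to test.

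Neighbours in the genome moved in opposite directions. On chromosome 10, *Lum* rose, *Kera* fell and *Dcn* was not called, and on chromosome 1 *Prelp* rose while *Fmod* fell. On chromosome 13, *Aspn* rose and *Ogn* and *Omd* were not called. Nor did the classes move as units, since *Lum* and *Fmod*, which bind the same stretch of collagen, went opposite ways, as did the close relatives *Kera* and *Prelp*.

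Marker levels moved with genotype. Beside the list counts that follow, edgeR called 2.07% of all genes tested lower and 1.77% higher. Tendon markers, 3 of 8 called lower (*Scx*, *Tnmd* and *Mkx*), summed to 159500 and 147100 CPM in Scx_Wt and 70860 and 81880 in Scx_homoKO. The summed level of 8 skeletal muscle markers was 34470 and 58790 CPM in the Scx_Wt libraries and 75270 and 78920 in the Scx_homoKO libraries, and that of 6 adipocyte markers was 2473 and 1088 against 676 and 348. Cartilage markers fell from 1588 and 1494 to 361 and 377 CPM, with 5 of 8 called lower, *Col2a1* most (-5.09 ± 0.29, edgeR adjusted p = 5.18e-05). Schwann cell markers stood at 1228 and 1147 against 7821 and 315, so that Scx_homoKO replicate 1 stood apart, with 0 of 6 called by edgeR (0 at an unadjusted p under 0.05, 0 by DESeq2). The muscle list had 1 of 8 called higher (*Myog*, 1.75 ± 0.19) and the adipocyte list 3 of 6 lower (*Plin1* most, -2.15 ± 0.45). In either direction, DESeq2 called 2 muscle markers and 1 adipocyte marker, 6 tendon markers and 5 cartilage markers. Endothelial and smooth muscle markers had 1 of 6 called lower each (*Kdr* and *Acta2*), with 5 of 6 at an unadjusted p under 0.05 by edgeR in both. DESeq2 called 2 and 3 of them. The endothelial sum was 856 and 865 CPM in Scx_Wt against 643 and 543 in Scx_homoKO. The smooth muscle sum was higher in the knockout, at 3651 and 3385 CPM against 3015 and 2536 in Scx_Wt. Yet the median log2 fold change over the 6 smooth muscle markers was -1.31. Of leukocyte and bone markers 0 of 5 and 0 of 3 tested were called by edgeR (0 and 1 at an unadjusted p under 0.05, 0 by DESeq2 in both). The part of all these in the changes of the SLRP genes was not tested.

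**Figure D5:**
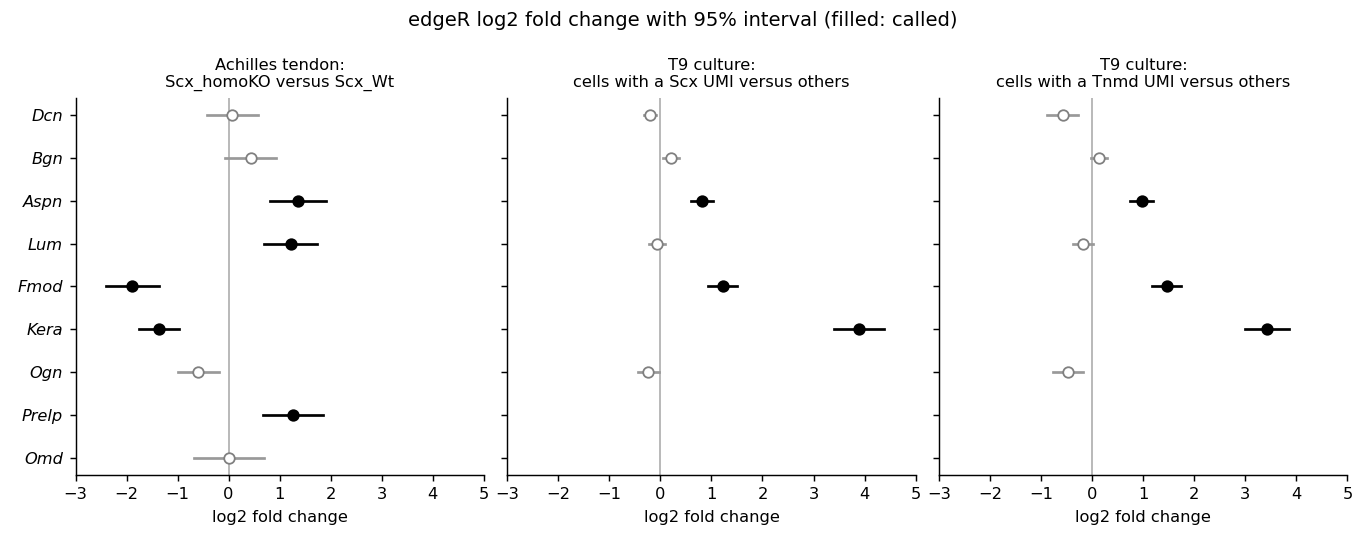
log2 fold change (horizontal axis) of each SLRP gene with its 95% interval, in Scx_homoKO against Scx_Wt tendon (left), in T9 cells with a *Scx* UMI against other T9 cells (middle) and in T9 cells with a *Tnmd* UMI against other T9 cells (right). Filled points were called at an adjusted p of at most 0.05. *Fmod* and *Kera* are lower in the knockout and higher in both classes of cells, whereas *Aspn* is higher in all 3 comparisons.

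Set beside each other, *Kera* and *Fmod* were higher in cells with *Scx* or *Tnmd* and lower in tendon without *Scx*. *Aspn* was higher in such cells, by 0.82 and 0.97 log2 units, and yet higher in the knockout, by 1.36. *Lum* was not called in either class of cells at T9 and was higher in the knockout. *Dcn*, *Bgn* and *Ogn* were not called in the knockout or in either class at T9 by the edgeR fit used throughout. Other edgeR fits with all libraries did call some of them. With thinned cells these were *Dcn* in *Tnmd* UMI cells (adjusted p = 0.000524) and *Ogn* in *Scx* UMI cells (0.0372). With no filter they were *Dcn* and *Ogn* in *Tnmd* UMI cells (2.82e-14 and 0.000474) and *Ogn* in the knockout (0.0226). The same setting called *Dcn* and *Bgn* in *Scx* UMI cells (0.00259 and 0.0446). With replicate number as a block *Ogn* was called in the knockout (0.0431). At an unadjusted p under 0.05 there were 6 of 9 members in the knockout, 5 of 7 for *Tnmd* and 6 of 7 for *Scx*, and DESeq2 called 6, 3 and 3.

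The balance of the family also differed between the culture and the tissue. *Fmod* made up 2.06% ± 0.70 of the family's UMIs at T9 (SD, n = 3) but 53.9% ± 0.5 of its summed RPKM in Scx_Wt tendon (SD, n = 2), and *Kera* 0.81% ± 0.21 but 9.06% ± 1.02. *Lum* was 13.5% ± 3.1 of the UMIs at T9 and 1.39% ± 0.45 of the RPKM in Scx_Wt. In Scx_homoKO tendon *Dcn* led with 30.4% ± 0.4, ahead of *Fmod* with 22.6% ± 1.4 and *Bgn* with 22.3% ± 0.6, the latter pair overlapping. The units of the tables differ (tagged molecules against reads per exon length), so these shares are given side by side without a test.

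The partners of SLRPs were examined from lists of their own. Of 11 collagens that SLRPs bind, 9 rose from T0 to T3, *Col6a2* most (7.90 ± 0.38 log2 units, edgeR adjusted p = 9.93e-09), 7 rose from T3 to T6 and 2 from T6 to T9. The share of all genes called higher was 17.0%, 2.61% and 0.935% in these steps. In the knockout edgeR called 4 of the 11 higher, *Col14a1* most (1.47 ± 0.25, adjusted p = 0.0128), and *Col2a1* lower, beside 1.77% and 2.07% of all genes, while DESeq2 called 8 in either direction. The summed level of the 11 collagens was nonetheless lower in the knockout, at 94920 and 110000 CPM against 173600 and 156300 in Scx_Wt. Of 22 enzymes that build chondroitin and dermatan sulfate chains 17 were tested, and 6 rose and 1 fell from T0 to T3, against 17.0% of all genes called higher. *Csgalnact1*, which starts the chondroitin chain, rose most (2.54 ± 0.56, edgeR adjusted p = 0.00329). From T3 to T6 3 rose, beside 2.61% of all genes, *Chst11* most (1.47 ± 0.22, adjusted p = 0.0021). From T6 to T9 edgeR called 0 of the 17 (7 at an unadjusted p under 0.05, 0 by DESeq2). In the knockout 1 of 21 tested fell, *Dse*, the epimerase that makes dermatan sulfate (-0.83 ± 0.19, edgeR adjusted p = 0.0457). Of all genes tested 2.07% were called lower, so 1 call is not read as a result about the list.

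Of the enzymes that build or sulfate keratan sulfate, which decorates lumican, fibromodulin and keratocan, 8 of 11 could be tested in the culture. From T0 to T3 1 rose, a share below the 17.0% of all genes: *Chst1* rose (2.38 ± 0.40, edgeR adjusted p = 0.000464) and *B3gnt7* fell (-2.25 ± 0.76, adjusted p = 0.0355). Later steps gave 0 calls by edgeR, with 2 and 4 at an unadjusted p under 0.05 and 1 and 0 by DESeq2. In the knockout *Chst5* fell by 3.51 ± 0.53 log2 units (edgeR adjusted p = 0.00647), the only call among 8 tested, beside 2.07% of all genes called lower. Among proteases that process SLRPs or their fibrils, 3 of 7 tested rose from T0 to T3 (17.0% of all genes did), *Mmp9* most (4.34 ± 0.41, adjusted p = 3.22e-06), and 0 of 9 was called by edgeR in the knockout (1 at an unadjusted p under 0.05, 0 by DESeq2). In *Tnmd* UMI cells at T9, 1 of 6 tested was called higher, *Mmp14* (0.57 ± 0.13, edgeR adjusted p = 0.0472), beside 0.843% of all genes. In *Scx* UMI cells at T9, 2 of 6 were called higher, beside 0.939% of all genes. These were *Pcolce* (0.52 ± 0.10, edgeR adjusted p = 0.00988), an enhancer protein rather than a protease, and *Mmp2*. DESeq2 called 0 of the list in either class. Of 9 more distant SLRP genes, *Chad*, the cartilage protein chondroadherin, was called from T0 to T3 (3.96 ± 1.36, edgeR adjusted p = 0.0417) and from T3 to T6 (4.35 ± 0.66, adjusted p = 0.00304). *Chad* was 8.50 log2 units higher at T9 than at T0, while the 9 genes together summed to at most 35.8 CPM at T9. Its T0 level was thus below the filter on low counts, and it could be tested against T0 only through later plates. The p-values of its culture steps are therefore descriptions. In the knockout *Chad* fell by 3.81 ± 0.21 (edgeR adjusted p = 5.12e-05).

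The genes whose levels over the 12 plates were most like those of each abundant member were listed by Pearson's r of log2 CPM, as a description, since all of them share the plates and the time course. For *Dcn* they were *Cybrd1* (0.994), *Nucb2* (0.993) and *C1qtnf3* (0.992). For *Bgn* they were *Col6a2* (0.995), *Ier3* (0.994) and *Col8a2* (0.994), and for *Lum* *Nucb2* (0.995), *C1qtnf6* (0.992) and *Moxd1* (0.991). For *Ogn* they were *Tmed3* (0.995), *Cybrd1* (0.992) and *Pmp22* (0.989).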

How the data were processed

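Per the labels, single cells were sorted into 384-well plates and read by CEL-Seq2, and polyA RNA of Achilles tendon was read with a directional kit. The authors deposited raw counts: UMIs by gene for each well, and reads by gene for each bulk library. Per the submitters' notes these were made on GRCm38 with HISAT2 2.2.1, featureCounts and UMI-tools 1.0.1 (plates) and with HISAT2 2.0.4 and featureCounts 1.5.0 (bulk). The annotation release and the strand setting are not given in the sources used here. Symbols came from the reference gene table, positions and exon lengths from GENCODE release M21, promoters from RefSeq.

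Wells with 200 or more genes were summed by plate (14 wells left out, which held 2 UMIs of the 10 genes). Entries that are not Ensembl genes (3, 0.0642% of UMIs) were left out. Plates of 1 time point, and tendon libraries of 1 genotype, differed by more than sampling noise (chi-square per degree of freedom 3.18 to 57.7), so none was merged with another. Of plates, pairs within a kind (many or few reads outside features) gave 3.18 to 8.45 and pairs across kinds 20.0 to 57.7. Counts were tested with edgeR 4.0.16 in R 4.3.3 (TMM, filterByExpr with a minimum count of 10, quasi-likelihood F test, Benjamini-Hochberg over all genes tested, calls at 0.05), all 12 plates in 1 fit, and cells with a *Tnmd* or *Scx* UMI against the other cells of their plate with plate as a block and the class gene left out. SE is the log2 fold change over the root of F. DESeq2 1.42.0, other scalings, no filter, a minimum of 1000 genes, thinning to 3000 UMIs, plates split at 9% of reads without a feature (sides taken from the mapping summary of the study), and leaving out each library were alternatives. The fit was tested on simulated data. Intervals and floors (3 counts) cover counting error only. Doublets were not called, since the sort had excluded them.

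The genes named are the 10 members, the called gene of each other list with the largest change in each direction, the genes most like a member, and *Scx*. *Tnmd*, *Cenpp*, *Gm15851* and the marker lists' other members are named as context. The members and lists were chosen with earlier results of these data known.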

Additional observations from a re-analysis of the deposited data

How the results depend on the processing

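The number of SLRP genes called stayed within 1.5 times that reported for T3 against T0, T6 against T3, T9 against T0 and the knockout. From T6 to T9 it fell from 4 to 2 with only the 6 plates compared, and was 2 to 5 with each library left out. With no filter it rose from 3 to 5 for both T9 cell classes, and from 2 to 4 for *Scx* UMI cells at T6, where thinning also gave 4. Leaving out a plate gave 3 to 5 for *Scx* UMI cells at T9 and 1 to 3 at T6. With no replicate block, edgeR called 1 gene (*Kera*) in each T9 class and 0 at T6, with 3 of 7 genes at an unadjusted p under 0.05 in each class and day, against 3 (*Tnmd*) and 2 (*Scx*) called by DESeq2 at T6 with the block. The number block gave 8, 6, 4 and 8 calls in the culture comparisons, as without it, and 6 in the tendon, where it added *Ogn* (adjusted p = 0.0431) and moved all calls from 560 to 1108. From T6 to T9 it moved all calls from 217 to 113. Deviations of same-numbered plates had correlations of -0.563 to 0.515, the lowest across the kinds of plate and the highest within 1 kind. With 2 libraries a genotype, the 2 tendon pairs must give the same value (0.071). These values cannot decide whether the numbers pair samples, and they were not taken to do so.

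Signs turned only for differences that were not called. Over the fits that left out 1 library, *Dcn* in the knockout ran from -0.026 (without Scx_homoKO replicate 2) to 0.17 log2 units. *Omd* ran from -0.075 (without Scx_homoKO replicate 1) to 0.10 there, and was -0.066 without Scx_Wt replicate 1. At T6, *Ogn* in *Tnmd* UMI cells was 0.30 with all plates and ran from -0.071 (without plate 3) to 0.58. *Lum* in *Scx* UMI cells ran from -0.049 (without plate 2) to 0.21. With cells thinned, *Lum* in *Scx* UMI cells at T9 was 0.078 and *Dcn* in *Tnmd* UMI cells at T6 was 0.025. Depth limits *Prelp*, *Omd* and *Epyc*, and *Kera* at T3.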

Other observations

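In the culture, the summed level of 6 smooth muscle markers ranged from 320 to 651 CPM at T0 and from 2358 to 3673 at T9, alongside the SLRP genes. All 6 were called higher at T9 than at T0, beside 23.6% of all genes tested. Of 8 skeletal muscle markers 2 could be tested and 0 were called by edgeR at T9 against T0 (0 at an unadjusted p under 0.05, 1 by DESeq2). *Fabp4*, a fatty acid carrier of adipocytes and capillaries and the only adipocyte marker that could be tested, rose from T6 to T9 (2.89 ± 0.54 log2 units, edgeR adjusted p = 0.0224) and was higher in T9 cells with a *Tnmd* UMI (1.92 ± 0.40, adjusted p = 0.0241) or a *Scx* UMI (1.32 ± 0.24, adjusted p = 0.00796).

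*Scx* fell from T6 to T9 by 1.55 ± 0.28 log2 units (edgeR adjusted p = 0.0146). Over the same step *Dcn*, *Aspn*, *Lum* and *Ogn* were called higher, the calls of *Aspn* and *Lum* being lost in 4 of the 6 fits that left out a plate, and *Bgn*, *Fmod*, *Kera* and *Prelp* were not called.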
